A study of Mus musculus with 4 samples.

Results

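The genes of 10 ETS transcription factors, Ets1, Ets2, Gabpa, Elf1, Elf2, Elk1, Elk3, Etv5, Etv6 and Fli1, were examined for RUNX1 binding in the fetal mouse ovary. A RUNX1 peak was counted for a gene if the TSS nearest to the edge of the peak belonged to that gene, or if the peak lay inside the gene body. By this rule, 13 of the 10494 RUNX1 peaks belonged to the 10 genes, 10 of them through the nearest TSS and 3 only through the gene body. The peaks come from ChIP-seq on whole ovaries of XX embryos of the CD1 strain at E14.5, for which no mutation or treatment is given, with 2 RUNX1 ChIP replicates and 2 input replicates. The ovaries were freed of the mesonephros and pooled, at 80 to 100 ovaries per ChIP by the labels (the methods of the study give a larger number), and 20 to 30 μg of chromatin were precipitated with 10 μl of an antibody against RUNX1. The authors merged the 2 RUNX1 replicates before calling peaks, so each peak has 1 fold enrichment over background and no replicate error, and the reads behind a peak were not analysed here. No difference between peaks was therefore tested, and values are given beside those of all peaks or all genes. Chromatin of the whole ovary was used, so the cell type in which a peak arose cannot be told apart.

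ETS factors share a DNA-binding domain that recognises GGAA, and the bases around this core separate the branches of the family. RUNX factors bind DNA at a short core together with their partner CBFB, and RUNX1 and ETS1 are a classical pair that binds neighbouring sites cooperatively. ETV6 is also known as the fusion partner of RUNX1 in childhood leukaemia. In the ovary, RUNX1 is a factor of the supporting cells, the pre-granulosa cells.

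RUNX1 peaks lay within 1 kb of a TSS of most of these genes, and the strongest were at Elf1 and Etv6. Of all protein-coding genes, 39.1% were nearest to a peak, a share that counts peaks at any distance. The sequence of 5 peaks is shown, on the sense strand of the gene and in mm10 coordinates, because they cover the range found: the strongest peak (Elf1), the peak in which a RUNX core and ETS sites stand side by side (Etv6), a RUNX core near the midpoint of a promoter peak (Elf2), a core at the edge of a peak (Elk1) and a core far from any TSS (Ets1). Capitals mark RUNX cores, TGTGGT or TGCGGT, and ETS sites, on either strand. Sites were searched in a long form, CCGGAAGT, in its inner part, CCGGAA, and in another form that reads CGGAAG or, with another first base, AGGAAG. The Elf1 and Elk1 peaks are shown only outside exons.
Elf1, 252 bases up to the TSS, chr14:79480942-79481193, forward strand: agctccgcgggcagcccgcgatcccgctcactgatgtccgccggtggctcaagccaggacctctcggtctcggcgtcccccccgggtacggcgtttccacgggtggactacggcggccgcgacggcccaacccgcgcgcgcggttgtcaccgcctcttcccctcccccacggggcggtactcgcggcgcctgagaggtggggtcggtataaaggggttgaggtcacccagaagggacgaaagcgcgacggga
Etv6, upstream of the TSS, chr6:134035118-134035417, forward strand: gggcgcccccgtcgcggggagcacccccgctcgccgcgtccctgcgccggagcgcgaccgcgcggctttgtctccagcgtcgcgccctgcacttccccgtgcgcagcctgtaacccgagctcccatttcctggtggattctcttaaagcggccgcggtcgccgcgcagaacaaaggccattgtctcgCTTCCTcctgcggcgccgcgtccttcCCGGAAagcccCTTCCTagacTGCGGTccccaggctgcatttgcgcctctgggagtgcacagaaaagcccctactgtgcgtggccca
Elf2, upstream of the TSS of the longer transcripts, chr3:51340659-51340958, reverse strand: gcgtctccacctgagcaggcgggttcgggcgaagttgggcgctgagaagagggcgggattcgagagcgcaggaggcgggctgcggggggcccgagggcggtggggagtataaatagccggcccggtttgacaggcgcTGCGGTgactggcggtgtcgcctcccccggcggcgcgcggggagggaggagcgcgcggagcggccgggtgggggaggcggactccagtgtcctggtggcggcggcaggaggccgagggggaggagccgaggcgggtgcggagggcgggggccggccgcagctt
Elk1, 110 bases of intron 1, chrX:20950330-20950439, reverse strand: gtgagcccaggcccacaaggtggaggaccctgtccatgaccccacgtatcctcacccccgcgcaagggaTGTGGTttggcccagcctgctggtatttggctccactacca
Ets1, between the 2 TSSs, chr9:32671959-32672258, forward strand: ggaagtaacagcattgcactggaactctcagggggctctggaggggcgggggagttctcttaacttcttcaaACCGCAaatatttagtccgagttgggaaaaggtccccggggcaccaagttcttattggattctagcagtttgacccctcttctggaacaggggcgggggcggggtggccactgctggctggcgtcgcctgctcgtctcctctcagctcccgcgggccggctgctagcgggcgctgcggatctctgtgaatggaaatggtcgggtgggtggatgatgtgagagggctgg

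At least 1 peak was found for 9 of the 10 genes, each of which had a TSS that was the nearest to a peak. Among all 26180 genes with curated RefSeq transcripts, 34.6% were nearest to a peak, and among the 21000 protein-coding genes 39.1%. The 10 genes were chosen with earlier results of these data known, so their count is a description. Of the 9 genes, 7 had exactly 1 peak, Elf2 had 2 and Etv6 had 4. Over all 9577 genes with a peak by the same rule, 82.4% had exactly 1 and 0.731% had 4 or more. The remaining gene, Gabpa, had no peak by the rule, although 1 peak lay 108 bp from its TSS.

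The fold enrichment of the 13 peaks ran from 4.01 to 20.06, with a median of 6.66. Over the 10490 peaks on assembled chromosomes, the median was 6.41 and the quartiles were 5.02 and 8.89. The ETS factor genes thus had 7 peaks above the median of all peaks, 3 above the third quartile and 3 below the first. The 3 peaks above the third quartile were those at the starts of Elf1, Etv6 and Elk1. The 3 below the first quartile were 2 intronic peaks of Etv6 and the peak of Fli1.

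**Figure D1:**
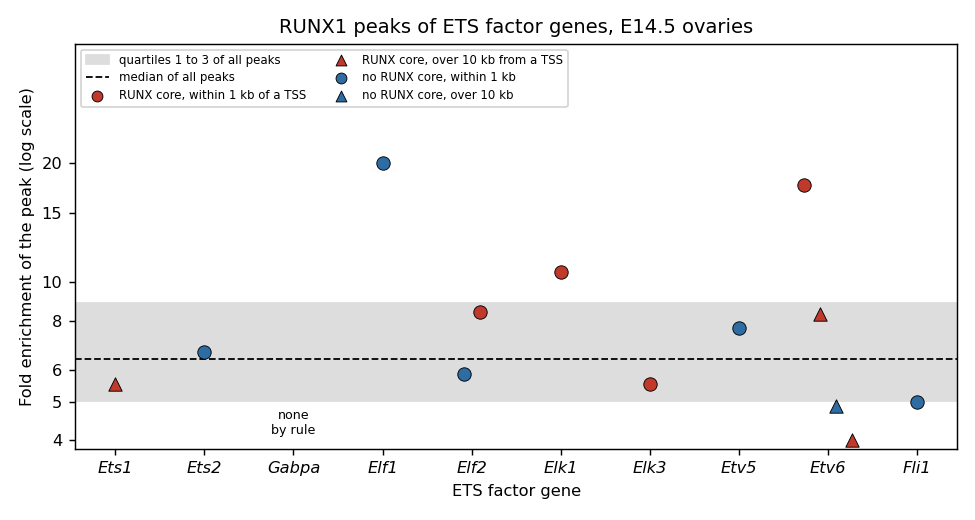
Fold enrichment of each RUNX1 peak on a log scale, by ETS factor gene, with red for peaks that hold a RUNX core, blue for the others, circles for peaks within 1 kb of a TSS and triangles for those over 10 kb away. The grey band spans the quartiles of all peaks (5.02 to 8.89) and the dashed line their median (6.41), and only Elf1, Etv6 and Elk1 have a peak above the band.

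Of the 13 peaks, 9 (69.2%) lay within 1 kb of a TSS, against 76.0% of all peaks. None of the 13 lay between 1 and 10 kb from a TSS, and the other 4 were over 10 kb away from any curated TSS. The 9 near peaks had a median fold of 7.67 (6.48 over all 7969 near peaks), and the 4 far peaks one of 5.21 (6.17 over all 1673 peaks over 10 kb away). The near peaks were rich in CpG, with 17 to 43 CpGs in 300 bp and a GC content of 64.3% to 76.0%. All near peaks had a median of 29 CpGs and 68.0% GC. The far peaks of the ETS factor genes had 3 to 16 CpGs and 40.7% to 60.0% GC, against medians of 7 and 53.7% over all far peaks.

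The peaks stood on both sides of the TSSs. Upstream were the Elf2 peak of fold 8.43, which ended 15 bp before the TSS, and the Etv6 peak, 283 bp before it. The peaks of Ets2, Elf1 and Elk1 covered the TSS. The other peaks near a TSS, those of Elk3, Etv5 and Fli1 and the second peak of Elf2, lay downstream, 697, 323, 595 and 7 bp past it. The table of RefSeq promoters, from 250 bases before to 50 after a start, holds 11 promoters of 8 of the genes, and 6 of these promoters touched a peak, beside 16.3% of all 32851 promoters in the table. One of the 6 is the promoter of Gabpa, whose peak counted for Atp5j and is not among the 13. The peaks of Elk3, Etv5 and Etv6 missed the promoter windows of their genes.

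**Figure D2:**
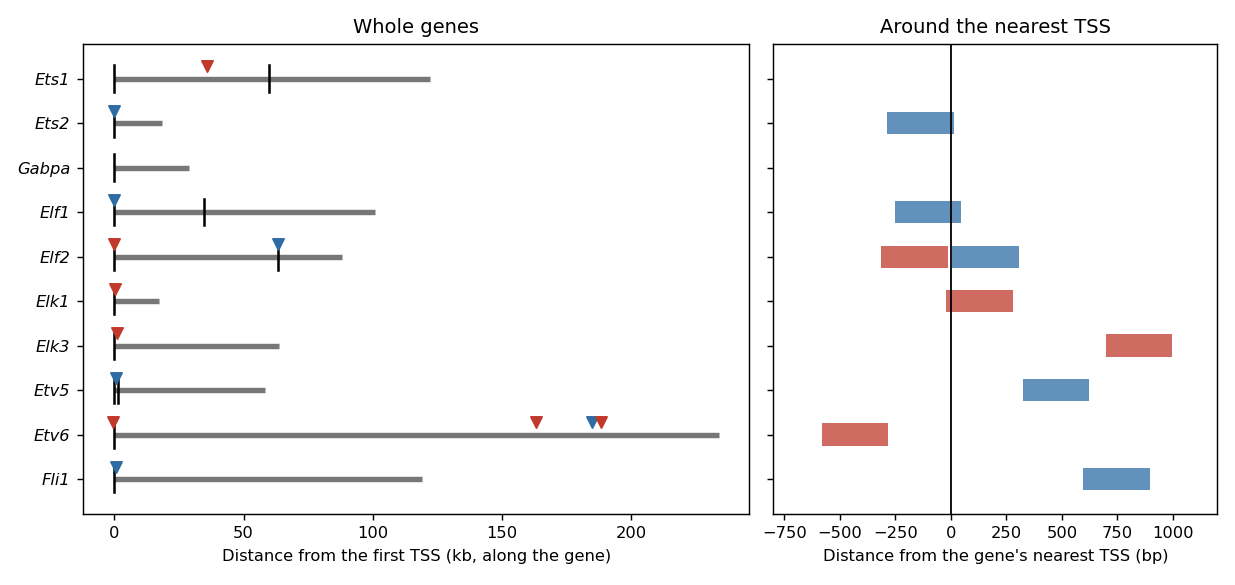
Left, the 10 genes drawn to scale from their first curated TSS, in kb along the gene, with vertical ticks for TSSs and triangles for RUNX1 peaks; right, the peaks as bars of 300 bp around the nearest TSS of the gene, in bp. Red marks peaks with a RUNX core and blue those without, and 3 peaks of Etv6 and the peak of Ets1 are the ones far from the TSSs of their gene.

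ETS1 and ETS2, the founding members of the family, are closely related activators that respond to Ras and MAP kinase signals. Ets1 spans chromosome 9 from 32636241 to 32757820 on the forward strand and has 2 curated TSSs. Neither held a peak. The single peak of Ets1, from 32671959 to 32672258, lay in intron 3 of the transcript that starts at the first TSS, 35718 bp past it, and 23779 bp upstream of the second TSS, from which 5 of the 6 curated transcripts start. Its fold was 5.55, below the median of all peaks. Its GC content was 60.0% with 16 CpGs, the highest of the far peaks described here. GENCODE M21 gave no closer TSS than 23764 bp.

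Ets2 spans chromosome 16 from 95702407 to 95721049 on the forward strand and had 1 peak, from 95702122 to 95702421. It covered the TSS and reached into exon 1, with a fold of 6.66. It held neither a RUNX core nor any of the ETS sites searched. By p-value of the peak caller, 1.79e-26, this peak ranked 2144th, higher than by fold, where it ranked 4834th. The paralogs thus differed in place: the Ets2 peak was at the TSS and the Ets1 peak was not.

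ELF1 and ELF2 belong to another branch, with roles in lymphoid and endothelial genes. Elf1 runs from 79481194 to 79582491 on the forward strand of chromosome 14 and carried the strongest peak of the 10 genes, from 79480942 to 79481241. It covered the upstream TSS and the start of exon 1, at a fold of 20.06 and a p-value of 7.81e-60 by the peak caller. By fold it ranked 318th of 10490 peaks, in the top 3.03%. In GENCODE M21, a TSS of the neighbouring gene Wbp4 also lay inside this peak. The second curated TSS of Elf1, from which 2 of its 3 curated transcripts start, had no peak nearer than 34433 bp. The Elf1 peak had 73.0% GC and 43 CpGs, and no RUNX core or ETS site of the forms searched.

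Elf2 spans chromosome 3 from 51252720 to 51340644 on the reverse strand, and both of its curated TSSs had a peak of their own. The TSS of the 3 longer transcripts had the peak from 51340659 to 51340958, with a fold of 8.43 and a TGCGGT core 10 bp from the midpoint. The TSS of the 2 shorter transcripts, deep in the gene, had the peak from 51277208 to 51277507, 7 bp past it and in exon 1 of these transcripts, with a fold of 5.86. This second peak held AGGAAG once and no RUNX core. The 2 peaks of Elf2 had similar GC content, 76.0% and 70.7%.

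ELK1 and ELK3 are ternary complex factors, which act with the serum response factor and are phosphorylated by MAP kinases. Elk1, on the X chromosome from 20933395 to 20950608 on the reverse strand, had a peak from 20950330 to 20950629 over its TSS, exon 1 and the start of intron 1. The fold was 10.64, rank 1717 of all peaks, whereas by p-value (2.43e-16) it ranked 5182nd. Its TGTGGT core lay in intron 1, 112 bp from the midpoint. Elk3, on chromosome 10 from 93247416 to 93311159 on the reverse strand, had a weaker peak from 93310163 to 93310462 in intron 1, at a fold of 5.55. It was 697 bp from the curated TSS and held TGCGGT 21 bp from its midpoint. With predicted RefSeq transcripts added, an Elk3 TSS stood 50 bp from this peak.

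ETV5, of the PEA3 branch, acts downstream of FGF signals and is needed in the testis for the upkeep of spermatogonial stem cells. Etv5 spans chromosome 16 from 22381313 to 22439570 on the reverse strand. Its single peak, from 22438948 to 22439247, lay between its 2 curated TSSs, 323 bp past the first and 580 bp before the second. It had a fold of 7.67, 64.3% GC and no RUNX core or ETS site of the forms searched. One of the member promoters with a RUNX core was that of the second Etv5 TSS, which the peak did not touch.

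ETV6 is a repressor with a domain for self-association. Etv6, on chromosome 6 from 134035700 to 134270158 on the forward strand, is the longest of the 10 genes at 234 kb and had the most peaks. Its upstream peak, from 134035118 to 134035417, had a fold of 17.59 and a p-value of 1.31e-49 by the peak caller, and ranked 445th by fold. A predicted noncoding RNA gene, Gm46977, has a TSS inside this peak. Of the 3 other peaks, all in introns, those at 134198590 to 134198889 (fold 8.33), 134220201 to 134220500 (fold 4.86) and 134223966 to 134224265 (fold 4.01) were 163, 185 and 188 kb past the TSS. The last was among the weakest in the whole list, at rank 10447 of 10490. The curated TSS nearest to all 3 was that of LOC118027456, a noncoding RNA gene inside Etv6. With predicted transcripts added, the peaks of fold 4.86 and 4.01 were 2369 and 1097 bp from a TSS of Gm38908, and the peak of fold 8.33 was 12077 bp from one of Gm52920. GENCODE M21 has an Etv6 TSS that lies 13100 bp from the peak of fold 4.86 and 9335 bp from the peak of fold 4.01.

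Peaks inside long genes were common in this list, but 3 in 1 gene were not. Of the 979 genes of at least 200 kb, 463 had no peak inside the gene body, the median was 1, and 53 (5.41%) had 3 or more, as Etv6 did. Peaks in the gene body close to a TSS count here as well. The 5.41% is therefore not a share of genes with 3 intronic peaks far from the TSS.

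FLI1 is a factor of endothelial and blood cells. Fli1 spans chromosome 9 from 32422204 to 32541452 on the reverse strand and neighbours Ets1, with 94.8 kb between the genes. Its peak, from 32540558 to 32540857, was in intron 1, 595 bp past the TSS, with a fold of 5.0. It had no RUNX core but held AGGAAG 102 bp from the midpoint and, alone among the 13 peaks, a forkhead site (TGTTTAC or TATTTAC), at 66 bp. The forkhead site, of the kind bound by FOXL2, was in 3.24% of all peaks, 8.89% of flanking windows and 6.54% of RefSeq promoters. By place, it was in 2.22% of all peaks within 1 kb of a TSS and 7.11% of all far peaks. These shares do not measure FOXL2 binding. From FOXL2 ChIP-seq, the paper reports significant overlap of RUNX1 peaks with FOXL2 peaks in the fetal ovary.

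GABPA, known also as a subunit of nuclear respiratory factor 2, activates genes of mitochondria and housekeeping genes and works together with the beta subunits encoded by Gabpb1 and Gabpb2. Gabpa spans chromosome 16 from 84835124 to 84863779 on the forward strand and starts close to Atp5j, a gene of the mitochondrial ATP synthase that runs the other way. The peak beside it, from 84834717 to 84835016, covered 3 of the 5 curated TSSs of Atp5j and therefore counted for that gene. Its fold was 4.40, in the lower ranks of the list (9380 of 10490). With predicted transcripts, 3 of the 6 predicted TSSs of Gabpa lay inside the peak. The next peak was 86918 bp from the Gabpa TSS. No RUNX core was found in the peak beside Gabpa, but it held the longest ETS form, CCGGAAGT, which none of the 13 peaks had. This site is shown in capitals because it is a match to the ETS motif in a peak beside an ETS factor gene. The site lay upstream of the RefSeq promoter window of Gabpa, which held no CCGGAAGT.
Gabpa and Atp5j, chr16:84834849-84834874, reverse strand: gagccagggCCGGAAGTagaacggtg

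RUNX cores were found in 7 of the 13 peaks. The 7 cores are shown with 10 bases to either side, each in the direction in which the core reads TGTGGT or TGCGGT, so that their surroundings can be compared. Capitals mark the core.
Ets1, chr9:32672021-32672046, reverse strand: actaaatattTGCGGTttgaagaagt
Elf2, chr3:51340806-51340831, reverse strand: tgacaggcgcTGCGGTgactggcggt
Elk1, chrX:20950355-20950380, reverse strand: gcgcaagggaTGTGGTttggcccagc
Elk3, chr10:93310321-93310346, reverse strand: cagccggggtTGCGGTccggatccct
Etv6 upstream peak, chr6:134035342-134035367, forward strand: cttcctagacTGCGGTccccaggctg
Etv6 intronic peak of fold 8.33, chr6:134198854-134198879, forward strand: cgtgctcacaTGCGGTatatacacac
Etv6 intronic peak of fold 4.01, chr6:134224150-134224175, reverse strand: tgttgtccttTGTGGTttgtattctg

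The share of 53.8% (95% exact binomial interval 25.1% to 80.8%, which covers counting only) stood beside 39.9% of all peaks. It was 23.0% in 20695 windows of 300 bp that lie 1 kb to either side of the peaks and 22.4% in all 32851 RefSeq promoters of 300 bp. Among peaks within 1 kb of a TSS, 4 of the 9 of ETS factor genes held a core, against 34.2% of all such peaks, and among far peaks 3 of 4, against 61.1%. The interval for the ETS factor genes includes the shares of all peaks, of near peaks and of far peaks. Its lower end, 25.1%, is a little above the shares of flanking windows (23.0%) and promoters (22.4%), and no difference was tested.

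The form with a CpG, TGCGGT, made up 5 of the 7 cores, and TGTGGT, at Elk1 and in the weakest Etv6 peak, the other two. TGCGGT was in 38.5% of the 13 peaks (interval 13.9% to 68.4%) and in 23.7% of all peaks, and TGTGGT in 15.4% and 19.5%. In flanking windows, TGCGGT was in 2.99% and TGTGGT in 20.7%, and in promoters in 6.45% and 16.8%. Over all peaks, TGTGGT was thus no more frequent than in flanking windows. It was in 13.2% of all near peaks and 43.9% of all far peaks. These windows were not matched for GC or CpG content. Only 3 of the 7 cores, those of Elf2, Elk3 and the weakest Etv6 peak, were within 50 bp of the peak midpoint. The peaks with a core had folds of 4.01 to 17.59 (median 8.33) and those without 4.86 to 20.06 (median 6.26), ranges that overlap almost wholly. The strongest peak, at Elf1, had no core. Over all peaks, the medians were 7.03 with and 6.11 without a core.

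**Figure D3:**
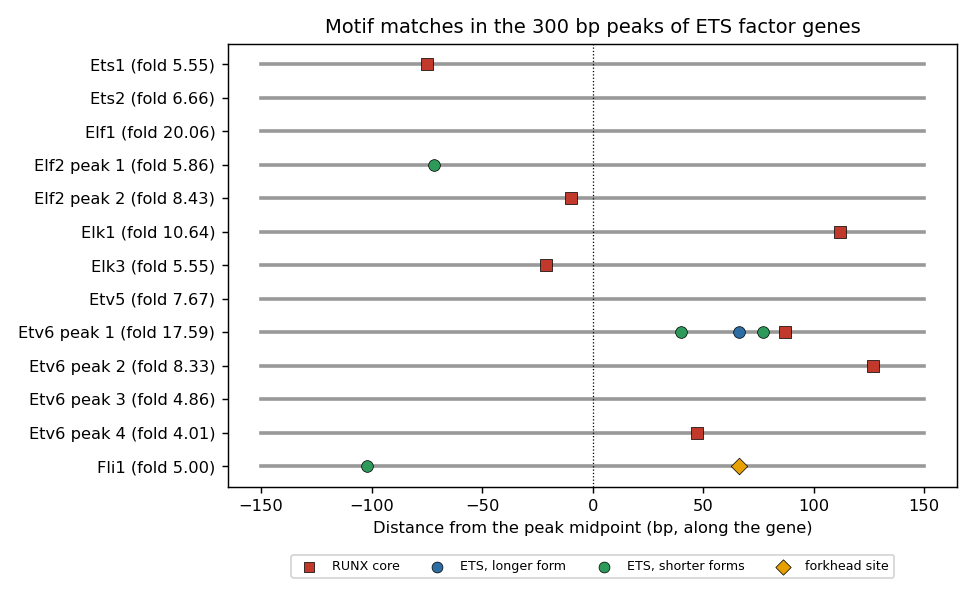
Matches to the RUNX core (red squares), to CCGGAA (blue circles), to CGGAAG or AGGAAG (green circles) and to the forkhead site (yellow diamond) in the 13 peaks, by distance from the peak midpoint in bp along the gene. A RUNX core and ETS sites occur together in 1 peak, the upstream peak of Etv6, where the core is 87 bp from the midpoint.

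Few peaks of the ETS factor genes held an ETS site of the forms searched, but their number is too small to set them apart from all peaks. The longest form, CCGGAAGT, was in 0 of the 13 peaks, which allows a share of up to 23.1% by a limit of 3 counts (exact binomial interval 0 to 24.7%), against 4.66% of all peaks, 3.89% of promoters and 0.304% of flanking windows. CCGGAA was in 1 of 13 peaks (7.69%, interval 0.195% to 36.0%), against 21.8% of all peaks and 14.9% of promoters. CGGAAG or AGGAAG was in 3 of 13 peaks (23.1%, interval 5.04% to 53.8%), those of Etv6, Elf2 and Fli1, against 46.4% of all peaks and 46.5% of promoters. These forms overlap, since CCGGAAGT contains both CCGGAA and CGGAAG. With 13 peaks, each of these intervals includes the share of all peaks.

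**Figure D4:**
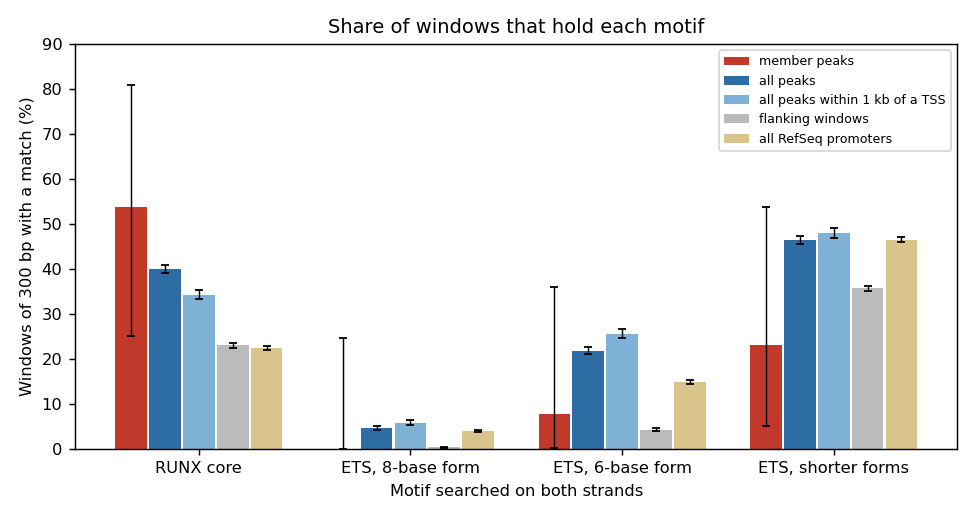
Share of windows of 300 bp, in percent, that hold the RUNX core or 1 of 3 forms of the ETS site (CCGGAAGT, CCGGAA, and CGGAAG or AGGAAG), for the 13 peaks of ETS factor genes, all peaks, peaks within 1 kb of a TSS, flanking windows and RefSeq promoters. Error bars are 95% exact binomial intervals for counting, wide for the 13 peaks, whose RUNX core share is 53.8% and whose CCGGAAGT share is 0.

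The upstream peak of Etv6 was the exception. In the sequence printed for it, 3 ETS sites precede the TGCGGT core, a CCGGAA and, on either side of it, AGGAAG on the other strand, and 4 bp separate the last ETS site from the core. An ETS site of any form searched within 30 bp of a RUNX core was found in this 1 of the 13 peaks (7.69%), in 6.85% of all 10490 peaks, in 6.37% of those near a TSS and in 2.58% of the flanking windows.

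Peaks were also found at other genes of the ETS family. Of 16 other family members, 7 were nearest to a peak, beside 39.1% of protein-coding genes: Erg, Etv1, Etv3, Erf, Elk4, Elf4 and Spdef. Fev, Etv2, Etv4, Elf3, Elf5, Ehf, Spi1, Spib and Spic were not. The 9 peaks of these genes by the same rule had a median fold of 7.93, and 4 of them held a RUNX core.

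By branch of the family, all 3 ternary complex factor genes had a peak, with Elk4 at a fold of 5.69, 31 bp from a TSS. So did the 3 Elf genes of the lymphoid and endothelial branch, with Elf4 at a fold of 7.93 in intron 1. Both genes of the ERF repressor branch were nearest to a peak, Etv3 with one over its TSS (fold 8.56) and Erf with one in intron 1 (fold 4.76). These counts stand beside 39.1% of all protein-coding genes. Elk1, Elk3, Elf1 and Elf2 are among the 10 genes chosen with earlier results of these data known. Each branch holds too few genes to be set apart from all genes. In the PEA3 branch, Etv1 had a peak 1248 bp upstream of its TSS (fold 11.57), and the peak nearest to Etv4 was 52248 bp away. Erg, the neighbour of Ets2 and the closest relative of Fli1, had a peak in intron 1, 770 bp past a TSS, with a fold of 5.14. The Fli1 and Erg peaks were alike in place, since both stood in the first intron at 595 and 770 bp, and in fold.

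The epithelial branch had no peak by the rule, and the peaks nearest to Elf3, Elf5 and Ehf were 111003, 60821 and 181693 bp from their TSSs. The SPI branch, known for factors of blood cells, differed. Spi1, the gene of PU.1, had a peak of fold 12.03 inside its last exon, and Spib one of fold 5.31, also inside its last exon. Both lay nearer to the TSS of a neighbour, Mybpc3 and Mybpc2, 2738 and 3282 bp away. Both held RUNX cores. The peak nearest to Spic was 47765 bp away. Spdef had a peak 3281 bp upstream of its TSS with a fold of 9.56 and 2 RUNX cores.

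The genes of both GABP beta subunits had peaks over a TSS. The Gabpb1 peak, at chromosome 2 from 126675526 to 126675825, had a fold of 45.25, which put it 41st of 10490 and above every peak of the ETS genes named here. It held TGCGGT and CCGGAA, 111 bp apart. The Gabpb2 peak had a fold of 6.90, no RUNX core and a CCGGAAGT site. In the GABP complex, the beta subunit genes thus had peaks by the rule and the DNA-binding subunit gene, Gabpa, had the weak peak shared with Atp5j.

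**Figure D5:**
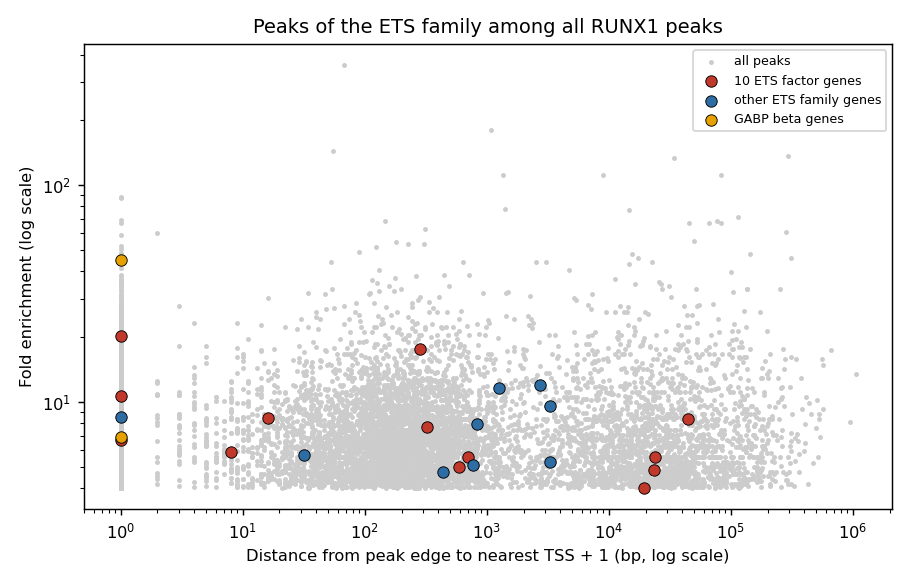
Fold enrichment of each RUNX1 peak against the distance from its edge to the nearest curated TSS plus 1 bp, both on log scales, with all 10490 peaks in grey, the 10 ETS factor genes in red, other ETS family genes in blue and the GABP beta genes in yellow. The peaks of ETS genes lie within the cloud of all peaks, and Gabpb1, at 45.25, has the highest fold among those coloured.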

How the data were processed

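RUNX1 ChIP-seq peaks of E14.5 ovaries were taken as deposited. By the study's methods, the authors filtered single-end reads on base quality, mapped them to mm10 at unique positions, removed duplicates, merged the 2 RUNX1 replicates, called peaks against input, set them to 300 bp and filtered them on enrichment over input and over the surrounding signal. Tools listed in the processing notes of the submitters are HOMER 4.9 and bedtools 2.24.0, with Picard 1.110 and Bowtie 1.2. For each peak, the deposited file gives a fold (a ratio to background) and a p-value of the caller, which were used only to describe and filter peaks. Unique mapping and these filters leave out repeats and weak binding.

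Coordinates count from 1 on mm10, the assembly of the GRCm38.p6 RefSeq annotation (45756 curated transcripts). The 4 peaks outside assembled chromosomes were left out. Motifs were searched on both strands. Promoter sequences are from RefSeq (GRCm38.p6). Python 3.11.15 and scipy 1.17.1 were used, and assignment and motif search were tested on simulated data. Peaks called on merged replicates leave no value per replicate, so no test was made. The 10 genes, the gene lists and the search words were chosen with earlier results of these data known, and the ETS forms, the 30 bp spacing and the 200 kb length limit are choices made here. Genes named are the 10, all other ETS and GABP beta genes, and the genes sharing or nearest to their peaks.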

Additional observations from a re-analysis of the deposited data

How the results depend on the processing

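Depth per peak was not analysed here, and the authors' limits decide which peaks exist. Of 67 values recomputed under 15 other settings, 56 stayed within their limits (1.5 times for counts, the 95% exact binomial interval for shares, and the 95% interval from order statistics for medians). Of the 56, 4 are the share of 0 for CCGGAAGT under settings that cannot raise it, and the median fold of 10.64 under a fold limit of 8 could only rise, so the tally is no measure of stability. With a fold of at least 8, 5 peaks of 4 of the 10 genes (Elf1, Elf2, Elk1 and Etv6) were left. Counted by nearest TSS alone, 3 other ETS genes were left, beside 13.8% of protein-coding genes. With a p-value under 1e-20, 4 peaks of 4 genes (Ets2, Elf1, Elf2 and Etv6) were left. Their median fold was 13.01, and 100% lay within 1 kb of a TSS. Again by nearest TSS alone, 1 other ETS gene (Etv3) was left, beside 15.1% of protein-coding genes. The Spi1 peak (fold 12.03, p-value 3.80e-64 by the peak caller) passed both limits. It lies in the gene body but nearer to the TSS of Mybpc3, so these 2 counts leave Spi1 out. When any TSS within 50 kb counted, all 10 genes and 12 of the 16 other ETS genes had a peak, as did 62.8% of protein-coding genes. The RUNX core share was 15.4% with TGTGGT alone and 23.1% within 50 bp of the midpoint. Predicted transcripts left the count at 9 genes but took the upstream peak from Etv6 and gave the Atp5j peak to Gabpa, while TSSs of GENCODE M21, a setting chosen after seeing the data, gave all 10 genes a peak, beside 36.6% of protein-coding genes. No paired analysis was possible because the replicates were merged before peaks were called and no result comes from a test.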
